A study of Homo sapiens with 8 samples.

Results

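FGR and 8 other genes of tyrosine kinase signalling in myeloid cells were followed in MOLM-13, an established human acute myeloid leukemia cell line. The count files held 58735 genes. The 9 genes followed are 7 non-receptor tyrosine kinases (FGR, LYN, FYN, FES, SYK, BTK and CSK) and 2 phosphatases that restrain such signalling (INPP5D and PTPN6). They were selected by name, with FGR chosen on its measured level, which was highest after DMSO course 1 and lower later. The values of FGR and the other members below are therefore a description of these libraries, with no test. All 9 members averaged at least 5 CPM (a count scaled to library size) over the libraries, the minimum used here, which 10710 genes reached.

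The study made a busulfan-resistant line, and the libraries used here are its drug-free arm. They are untreated parental cells (replicate 2), kept to at most 20 passages, and cells after 1, 3 or 5 courses of dimethyl sulfoxide (DMSO) at 1%, the vehicle, grown beside the cultures given busulfan. There is 1 library for each condition. Those given busulfan, and parental replicate 1, were not analysed here, and passage and course number cannot be told apart because the labels give no passage number for the DMSO cultures. Bulk RNA was sequenced, and the libraries held 44795976 to 56825811 gene counts. Reads aligned to several places, which count for no gene, took 21.33% of the reads in course 5 and 13.86% to 15.39% in the other libraries. The 14 myeloid genes listed for the line's identity summed to 3473, 4555, 4085 and 3409 CPM across the parental and the course 1, 3 and 5 libraries, and 12 of them averaged at least 5 CPM. The exceptions were CEBPE and AZU1.

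Src-family kinases such as FGR, LYN and FYN sit at the inner face of the plasma membrane, where they phosphorylate tyrosine motifs on the adaptors of Fc receptors and integrins. SYK docks on the phosphorylated motifs and passes the signal on to BTK and phospholipase C gamma. CSK restrains the family by phosphorylating an inhibitory tyrosine in the tail of Src-family kinases, while the phosphatases PTPN6 (SHP-1) and INPP5D (SHIP-1) are recruited by inhibitory receptors and remove phosphate from proteins and from the lipid PIP3.

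FGR and FYN were the members that differed most between libraries, and their RefSeq start regions are shown for that reason. Each runs from 250 bases before to 50 bases after an annotated start (GRCh38.p14, minus strand), and the capitals mark GAGGAA, a core bound by the myeloid factor PU.1, and TGTGGT, a core bound by RUNX factors, on either strand. The first FGR region lies at chr1:27635136-27635435, the second at chr1:27626548-27626847 and the FYN region at chr6:111873403-111873702.
FGR, first start: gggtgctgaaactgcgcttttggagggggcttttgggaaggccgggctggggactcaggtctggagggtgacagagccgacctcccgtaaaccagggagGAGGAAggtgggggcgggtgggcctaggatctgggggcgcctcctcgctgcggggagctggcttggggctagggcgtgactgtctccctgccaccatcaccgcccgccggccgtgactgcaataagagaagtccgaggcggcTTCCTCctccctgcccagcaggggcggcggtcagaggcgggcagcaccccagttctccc
FGR, second start: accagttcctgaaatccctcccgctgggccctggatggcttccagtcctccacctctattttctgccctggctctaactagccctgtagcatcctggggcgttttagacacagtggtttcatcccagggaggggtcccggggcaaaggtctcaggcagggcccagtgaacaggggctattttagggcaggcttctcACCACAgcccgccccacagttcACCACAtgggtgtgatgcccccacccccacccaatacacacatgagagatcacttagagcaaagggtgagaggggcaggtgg
FYN, first start: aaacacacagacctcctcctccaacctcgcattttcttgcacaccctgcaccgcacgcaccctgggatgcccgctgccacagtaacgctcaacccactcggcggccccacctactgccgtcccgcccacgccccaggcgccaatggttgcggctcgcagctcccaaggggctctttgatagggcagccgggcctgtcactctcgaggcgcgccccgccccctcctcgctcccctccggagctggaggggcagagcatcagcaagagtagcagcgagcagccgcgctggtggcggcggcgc

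The first FGR region held 2 matches to GAGGAA and none to TGTGGT. The second held 2 matches to TGTGGT and none to GAGGAA, so the 2 motifs did not overlap in either. The FYN region shown held neither, and of 3 other FYN regions 1 held TGTGGT. Across 35116 RefSeq start regions of the same length, 27.9% held GAGGAA and 13.1% held TGTGGT, so both are common. LYN was left out of this search. Of 16 regions of the 8 other members, 8 held GAGGAA, belonging to 6 genes (FGR, SYK, BTK, CSK, INPP5D and PTPN6). The first FGR region had 68.7% G and C with 18 CG pairs, the second 59.0% with 4, and the FYN region 69.0% with 26, against a median of 58.7% G and C over all regions. The counts are per gene and do not tell which start was used.

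FGR (ENSG00000000938), a Src-family kinase largely restricted to blood cells, was the most variable member. The parental library had 519 counts of it (8.77 CPM), course 1 had 981 (22.8 CPM), course 3 had 253 (5.04 CPM) and course 5 had 142 (3.12 CPM). Course 1 was thus the highest library and course 5 the lowest. In bulk RNA, fewer cells with the transcript and less transcript in each cell cannot be told apart. The log2 ratio of FGR to the parental library was 1.38 in course 1 (exact binomial 95% interval 1.22 to 1.53, for counting error only, as in all intervals here). In course 3 it was -0.80 (-1.02 to -0.58) and in course 5 it was -1.49 (-1.77 to -1.22). Course 5 also had the lowest mitochondrial share of gene counts (9.22%, against 13.57% to 15.11%). Scaling without mitochondrial genes gave the same ratios to the parental library (1.38, -0.80 and -1.49). The scaling rests on a trimmed mean over 18612 genes, so leaving out the mitochondrial ones could barely move it. The part of the mitochondrial share in the level of FGR was not tested. FGR in course 5 stood 7.31-fold below its level in course 1, at a log2 ratio of -2.87 (-3.13 to -2.61).

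FYN (ENSG00000010810), a Src-family kinase widely expressed and best known in T cells and brain, had its highest level where FGR had its lowest. The parental library had 991 counts of it (16.8 CPM), course 1 had 645 (14.97 CPM), course 3 had 1589 (31.6 CPM) and course 5 had 3048 (66.9 CPM). The parental and course 1 libraries were close, and courses 3 and 5 were above both. Relative to the parental library its log2 ratio was -0.16 in course 1 (-0.31 to -0.02), 0.92 in course 3 (0.80 to 1.03) and 2.00 in course 5 (1.89 to 2.10). Course 5 stood 2.11-fold above course 3, at a log2 ratio of 1.08 (0.99 to 1.17).

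LYN (ENSG00000254087), the Src-family kinase with the highest level among the members and known for both activating and inhibitory roles, differed little. It stood at 232.8, 210.8, 239.2 and 281.1 CPM across the parental and the course 1, 3 and 5 libraries, 1.33-fold between the lowest and the highest. A DNA sequence of LYN is not shown.

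**Figure D1:**
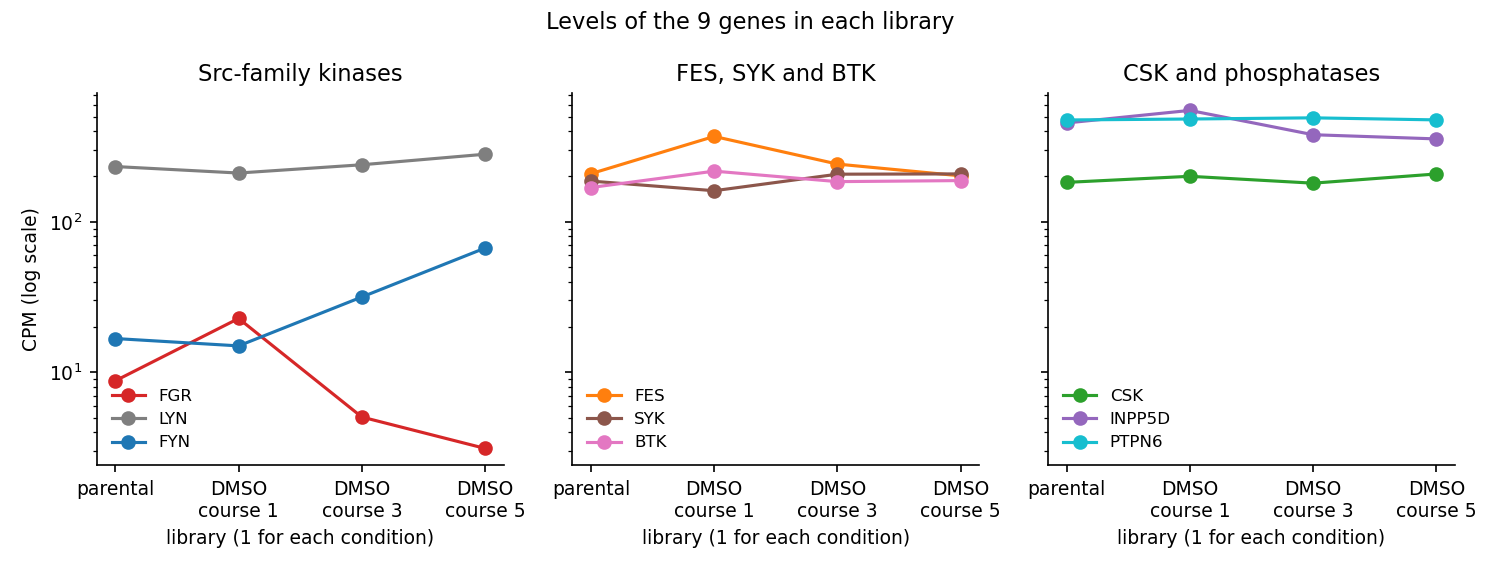
CPM (log axis) of the 9 members in the 4 libraries, with 1 point for each library and lines that only join the points of a gene. FGR peaks in course 1 at 22.8 CPM and FYN reaches 66.9 CPM in course 5, while the other 7 genes lie between 160.8 and 549.6 CPM throughout.

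Outside the Src family, FES (ENSG00000182511), a membrane-binding tyrosine kinase of myeloid cells, was highest in course 1. It stood at 208.7, 369.1, 241.7 and 201.9 CPM across the parental and the course 1, 3 and 5 libraries. The log2 ratio of course 1 to the parental library was 0.82 (0.79 to 0.86), which is 1.77-fold, against 0.21 for course 3 and -0.05 for course 5. SYK (ENSG00000165025) was lowest in course 1, at 186.4, 160.8, 207.1 and 208.0 CPM in the same order. BTK (ENSG00000010671), a target of SYK and Src-family kinases, was highest in course 1, at 168.9, 217.0, 184.8 and 187.8 CPM. Both spanned less than 1.3-fold.

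Among the genes that restrain the pathway, PTPN6 (ENSG00000111679) was nearly level. It stood at 474.7, 481.8, 490.5 and 475.3 CPM across the parental and the course 1, 3 and 5 libraries, 1.03-fold from lowest to highest. CSK (ENSG00000103653) stood at 182.7, 200.5, 180.5 and 207.8 CPM, a span of 1.15-fold. INPP5D (ENSG00000168918) stood at 453.5, 549.6, 378.8 and 355.3 CPM, highest in course 1 and lowest in course 5, with a log2 ratio between these libraries of -0.63 (-0.66 to -0.60). In this it ordered the libraries as FGR did, over a much smaller range.

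**Figure D2:**
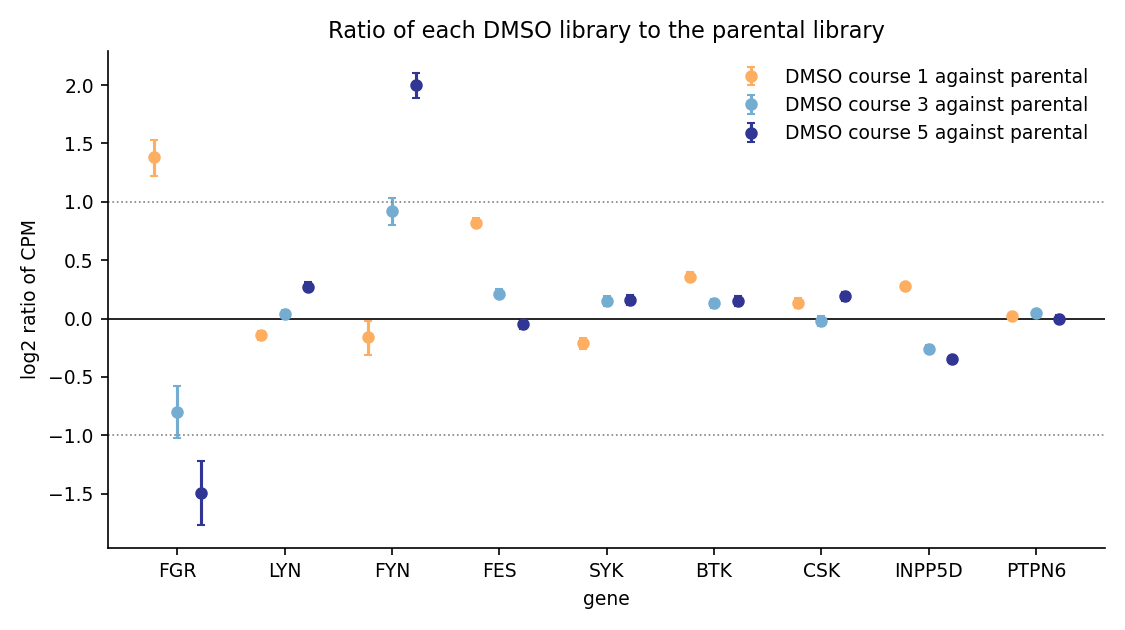
Log2 ratio of CPM of DMSO courses 1, 3 and 5 to the parental library for each member, with exact binomial 95% intervals for counting error and dotted lines at 2-fold. FGR lies at 1.38, -0.80 and -1.49 and FYN at -0.16, 0.92 and 2.00, while the other 7 genes stay inside the dotted lines.

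A gene was called apart between 2 libraries when it differed at least 2-fold and its interval excluded a ratio of 1. In course 1 against the parental library, 1 of 9 members was called higher (FGR) and 0 lower, where 3.7% of the 10710 genes were called higher and 4.19% lower. In course 3 against the parental library 0 members were called, against 2.23% of genes higher and 2.34% lower. In course 5 against the parental library 1 member was higher (FYN) and 1 lower (FGR), against 2.96% and 4.92% of genes. These 3 comparisons share the parental library.

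Against course 1, FYN was called higher and FGR lower in course 3, where 3.9% of genes were called higher and 4.82% lower. The same 2 members were called in course 5 against course 1, where 7.14% of genes were higher and 9.08% lower. Between courses 5 and 3 few genes differed by that much: 8 of 10710 (0.0747%) were called higher in course 5, FYN among them, and 0.915% were called lower, with no member among these. Since the values in all 4 libraries were known when the members were listed, nothing is read from these shares about the list.

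With calls at 1.5-fold, FES joined FGR in course 1 against the parental library, making 2 members where 26.6% of genes were called in either direction. FGR and FYN made 2 members in course 3 (13.1% of genes) and 2 in course 5 (23.2% of genes) against the parental library. Against course 1, FGR, FYN and FES made 3 members in course 3 (25.8% of genes), and INPP5D made it 4 in course 5 (38% of genes). Between courses 5 and 3, FGR and FYN made 2 (5.07% of genes). LYN, SYK, BTK, CSK and PTPN6 were called in none of the 6 comparisons at either fold.

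The median absolute log2 ratio of the 9 members to the parental library was 0.21, 0.15 and 0.19 in courses 1, 3 and 5, against 0.34, 0.23 and 0.31 over the 10710 genes. Single members lay at both ends of the range of all genes. The log2 span from lowest to highest library was 2.87 for FGR, wider than that of 98.6% of genes, and 2.16 for FYN, wider than 96.9%. It was 0.05 for PTPN6, wider than 0.1% of genes, and 0.20 for CSK, wider than 7.1%, with a median over all genes of 0.61. The order of libraries that FGR had (course 1, parental, course 3, course 5, from high to low) was found in 14.7% of genes and that of FYN, the reverse, in 15.2%.

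**Figure D3:**
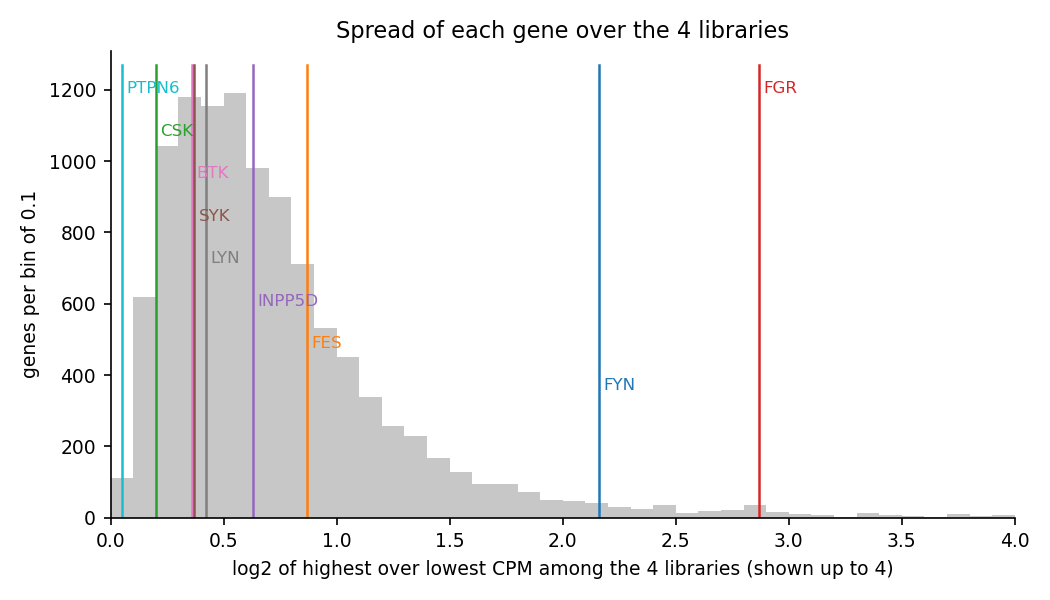
Histogram of the log2 ratio of highest to lowest CPM among the 4 libraries over the 10710 genes averaging 5 CPM or more (bins of 0.1, shown up to 4), with a line for each member. PTPN6 (0.05) and CSK (0.20) lie at the low end, FYN (2.16) and FGR (2.87) in the upper tail.

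Per kilobase of exon, the scale on which levels of different genes were compared, PTPN6 was highest at 95.95 ± 1.47 CPM per kb (mean ± SD over the 4 libraries, which are different conditions and not replicates). FES followed at 60.3 ± 18.4, INPP5D at 50.03 ± 10.1, CSK at 42.2 ± 2.93, BTK at 41.5 ± 4.38, LYN at 39.0 ± 4.75 and SYK at 36.6 ± 4.26 CPM per kb. From FES to SYK the range of each gene over the libraries overlapped that of the next, so neighbours in this order were not separated. FYN, at 4.39 ± 3.25, and FGR, at 2.86 ± 2.56 CPM per kb, lay below all of them without overlap and overlapped each other. The 2 members with the widest span were thus also the 2 with the lowest level per length.

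Among the Src-family kinases FGR, FYN, SRC and YES1, the order of levels per length differed between libraries. On the scale of CPM per kb, FGR stood at 2.53, 6.56, 1.45 and 0.897 across the parental and the course 1, 3 and 5 libraries, and FYN at 2.26, 2.02, 4.27 and 9.03. The level of FYN per length was thus 0.895, 0.308, 2.94 and 10.1 times that of FGR in the same 4 libraries. YES1, a widely expressed member of the family, stood at 4.71, 3.93, 3.51 and 4.22 CPM per kb, between FGR and FYN in courses 1, 3 and 5. FGR was above YES1 and FYN in course 1, and FYN was above both in courses 3 and 5. LYN, at 34.1 to 45.4 CPM per kb, was above these 4 in every library. The T and B cell members LCK and BLK had 0 to 2 counts in each library.

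**Figure D4:**
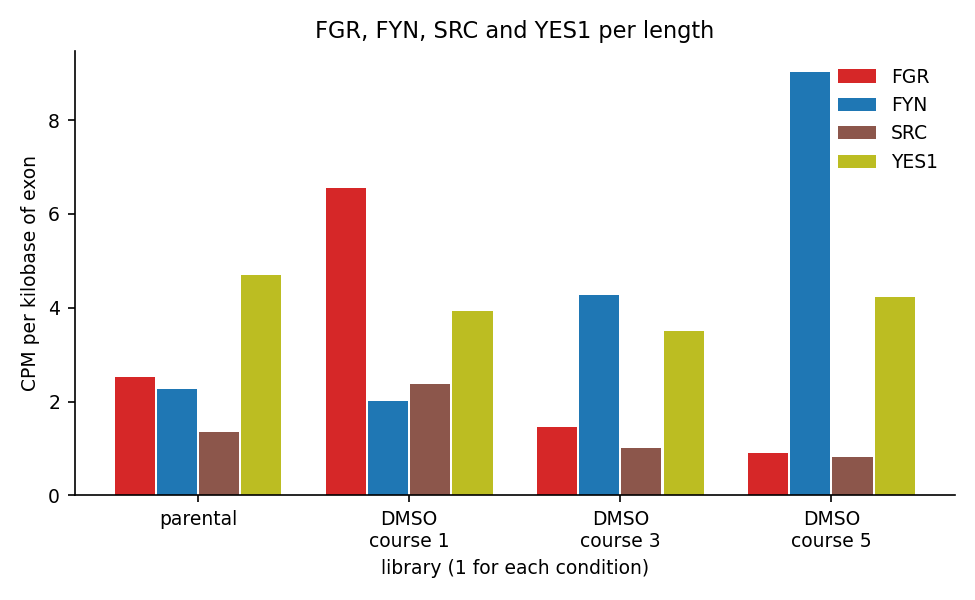
Bars of CPM per kilobase of exon for FGR, FYN, SRC and YES1, 4 Src-family kinases, in each of the 4 libraries. FGR is the tallest bar in course 1 at 6.56 and FYN in course 5 at 9.03 CPM per kb, while YES1 lies between 3.51 and 4.71 throughout.

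Of 31 cytoplasmic tyrosine kinases listed, 20 reached a mean of 5 CPM, among them the 7 member kinases, 2 of 4 other Src-family kinases and 11 of the 20 from other families. SRC was called lower in courses 3 and 5 than in course 1, where 4.82% and 9.08% of all genes were called lower. It stood at 8.69, 15.4, 6.47 and 5.31 CPM across the parental and the course 1, 3 and 5 libraries, the same order as FGR. In the other families 1 of 11 kinases was called higher in course 1 than in the parental library. The same call was made for 1 in course 3 and 2 in course 5, with 0 lower in each comparison. Of all genes, 3.7%, 2.23% and 2.96% were called higher in these 3 comparisons, and 4.19%, 2.34% and 4.92% lower. TEC, the founder of the BTK family, stood at 19.4, 52.8, 35.1 and 28.5 CPM. PTK2 (focal adhesion kinase) stood at 6.32, 10.4, 12.7 and 20.5 CPM, and FER, the closest relative of FES, at 5.66, 10.4, 9.48 and 13.0 CPM, both highest in course 5. TNK2 (ACK1) stood at 54.7, 87.2, 46.2 and 37.1 CPM and was called lower in course 5 than in course 1. The median log2 ratio of these 11 kinases to the parental library was 0.40, 0.19 and 0.33 in courses 1, 3 and 5, against 0.02, 0.01 and 0.03 over all genes.

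Upstream, 8 of 14 activating receptors and adaptors reached 5 CPM. Against the parental library 1 was called higher in course 1 (FCER1G), 1 in course 3 (ITGAL) and 0 in course 5, with 0 lower. The shares of all genes were 3.7%, 2.23% and 2.96% higher and 4.19%, 2.34% and 4.92% lower. In course 5 against course 1, 2 were lower (FCER1G and FCGR2A), as were 9.08% of all genes. FCER1G, the Fc receptor gamma chain that carries an activating tyrosine motif, stood at 11.7, 23.5, 14.2 and 9.20 CPM across the parental and the course 1, 3 and 5 libraries. ITGAL, the alpha chain of the integrin LFA-1, stood at 1091, 1927, 2297 and 2059 CPM. The Fc receptor FCGR2A stood at 49.7, 54.0, 29.7 and 26.2 CPM, and since it shares sequence with its paralogs, its count is uncertain.

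Of 18 inhibitory receptors, the class that recruits PTPN6 and INPP5D, 9 reached 5 CPM. Against the parental library 1 was called higher and 1 lower in course 1, 2 higher and 2 lower in course 3, and 1 higher and 4 lower in course 5. Against course 1, 4 were lower in course 3 and 4 in course 5, with 0 higher. Over all genes 4.82% and 9.08% were called lower in these 2 comparisons, and 3.9% and 7.14% higher. The shares for the comparisons with the parental library are given above. CD300A stood at 45.7, 108.5, 23.9 and 15.5 CPM and CD72 at 5.90, 10.6, 3.43 and 1.32 CPM across the parental and the course 1, 3 and 5 libraries, both highest in course 1 and lowest in course 5, as FGR was. SIGLEC7, a sialic acid receptor, stood at 18.1, 11.2, 2.79 and 2.20 CPM. FCGR2B, an inhibitory Fc receptor whose reads are shared with close paralogs, stood at 31.0, 12.3, 0.757 and 0.154 CPM. CD72, SIGLEC7 and FCGR2B were above 5 CPM only in the parental and course 1 libraries, so the minimum favoured lower calls for them. CLEC12A was above 5 CPM only in course 3, where it was called higher. The receptors called higher in the later courses, named outside the rule after their values were seen, were the collagen receptor LAIR1, at 7.29, 13.5, 15.9 and 17.1 CPM, and CLEC12A, at 3.75, 4.36, 8.56 and 4.79 CPM. Relative to parental cells the list had a median log2 ratio of 0.22, -0.22 and -0.34 in courses 1, 3 and 5.

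Of 19 other activators and restrainers of these kinases, 18 reached 5 CPM. Against the parental library 0 were called in course 1, 1 was lower in course 3, and 1 was higher and 1 lower in course 5. In these comparisons 3.7%, 2.23% and 2.96% of all genes were called higher, and 4.19%, 2.34% and 4.92% lower. For course 5 against course 1 the shares were 7.14% higher and 9.08% lower. UBASH3B, a phosphatase that dampens SYK, stood at 32.0, 22.4, 15.6 and 15.2 CPM across the parental and the course 1, 3 and 5 libraries and was lower in courses 3 and 5 than in the parental cells. PTPN11 (SHP-2), the relative of PTPN6, stood at 144.3, 104.9, 170.5 and 215.2 CPM and was called higher in course 5 than in course 1. PAG1, the membrane adaptor that brings CSK to Src-family kinases, stood at 121.7, 134.2, 186.8 and 243.8 CPM and was called higher in course 5 than in parental cells; it too was named after its values were seen. The adaptor DOK3, at 25.5, 43.3, 28.8 and 21.1 CPM, and the lipid phosphatase INPP4B, at 5.26, 9.03, 5.85 and 3.60 CPM, were called lower in course 5 than in course 1. INPP4B averaged 5.9 CPM, near the minimum, with its highest level in course 1, so the minimum favoured that call.

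Of 27 downstream adaptors and effectors, 24 reached 5 CPM. Against the parental library 1 was called higher in course 1 and 0 in courses 3 and 5, with 0 lower. Higher calls took 3.7%, 2.23% and 2.96% of all genes there, and lower calls 4.19%, 2.34% and 4.92%. Against course 1, 4.82% of all genes were called lower in course 3 and 9.08% in course 5. The 1 was GAB2, a docking adaptor, at 90.4, 192.4, 144.7 and 175.9 CPM across the parental and the course 1, 3 and 5 libraries. The lipid-binding adaptor DAPP1, at 19.9, 26.4, 13.8 and 11.7 CPM, was called lower in course 5 than in course 1, and the adaptor FYB1, at 40.9, 50.3, 24.7 and 26.4 CPM, lower in course 3 than in course 1. Relative to parental cells the list had a median log2 ratio of 0.29, 0.01 and -0.12 in courses 1, 3 and 5.

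Among 9761 other protein-coding genes averaging 5 CPM or more, the profile nearest to that of FGR was that of CD300A. Likeness was the distance between log2 CPM profiles over the 4 libraries, each centred on its own mean, and it was 0.108 log2 units for CD300A against a median of 2.18 over all genes. AGRN (0.186), PCP2 (0.217), NDRG1 (0.249), INF2 (0.249), CIITA (0.267), WDR54 (0.283) and SIGIRR (0.285) followed. AGRN, which encodes the matrix protein agrin, stood at 133.4, 306.1, 64.6 and 41.97 CPM across the parental and the course 1, 3 and 5 libraries. CIITA, the regulator of MHC class II genes, stood at 10.5, 26.4, 5.36 and 2.94 CPM. With 4 libraries many genes can lie close, and 37 lay within 0.5 log2 units. SRC was at 0.975, FES at 1.57 and FYN at 3.75 log2 units.

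**Figure D5:**
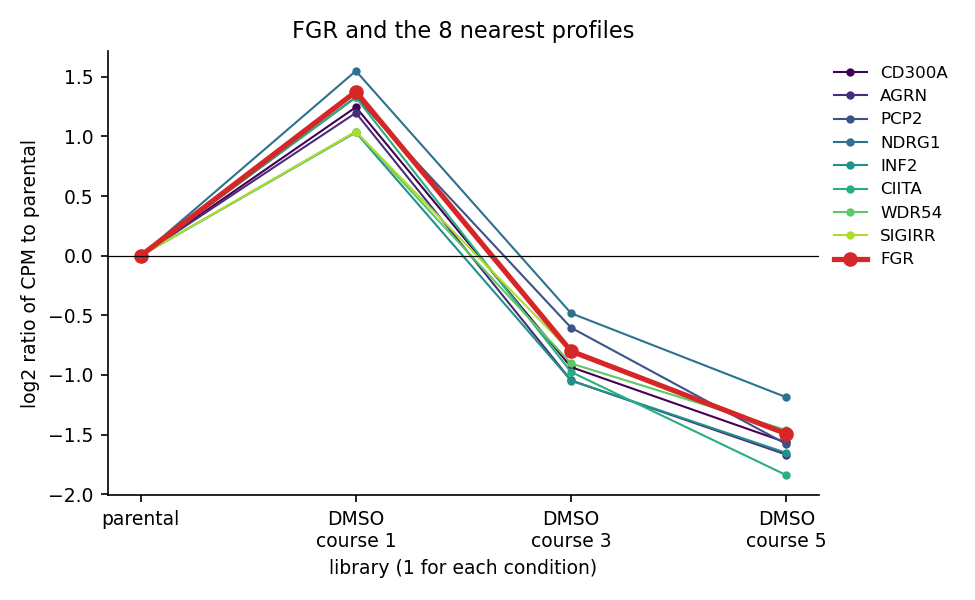
Log2 ratio of CPM to the parental library for FGR (thick red line) and the 8 protein-coding genes with the nearest profiles, 1 point for each library. All 9 genes are highest in course 1 and lowest in course 5.

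The myeloid identity genes also differed between the libraries. Of the 12 that averaged at least 5 CPM, 1 was called higher and 1 lower at 2-fold in course 1 than in parental cells, 0 and 1 in course 3, and 0 and 2 in course 5. In course 5 against course 1, 0 were called higher and 3 lower (FCER1G, MPO and CSF1R). Among the 10710 genes, 3.7%, 2.23% and 2.96% were called higher in courses 1, 3 and 5 against the parental library. The shares called lower were 4.19%, 2.34% and 4.92%. In course 5 against course 1 they were 7.14% higher and 9.08% lower. Nothing is read from these counts about the list. CTSG, the granule protease cathepsin G, stood at 209.8, 70.9, 83.3 and 90.9 CPM across the parental and the course 1, 3 and 5 libraries and was called lower in all 3 courses than in parental cells. CSF1R, the receptor of a macrophage growth factor, stood at 49.04, 61.5, 27.5 and 21.7 CPM and was called lower in course 5 than in parental cells. The granule enzyme MPO stood at 551.0, 932.4, 739.2 and 335.7 CPM. MPO, CSF1R, CSF3R, CEBPE and FCER1G were highest in course 1 and lowest in course 5, as FGR was, and their part in the level of FGR was not tested. The rest of the list did not have that pattern. SPI1 and CD68 were highest in course 1 but not lowest in course 5. CEBPA was highest in course 5, FLT3, LYZ and AZU1 in course 3, and CD33, ITGAM and CTSG in the parental library.

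Markers of other cell types were read beside these values. The 5 mast cell and basophil markers summed to 1.72, 5.83, 15.1 and 12.1 CPM across the parental and the course 1, 3 and 5 libraries, mostly TPSAB1, whose count is uncertain because of a near-identical neighbour, with CPA3 at 0 counts in all 4. The sum was higher in courses 3 and 5 than in the parental library, as FYN was, but also in course 1, where FYN was lowest. From course 3 to course 5 the sum fell, while FYN rose. MS4A2 had the order of the sum and HDC did not, and KIT went the other way, at 0.558, 0.139, 0.0797 and 0.0439 CPM. The part of these markers in the level of FYN was not tested. Of 5 T and NK cell markers, CD2 was at 0 counts in every library and CD3E at 0 in the 3 DMSO libraries. CD3D stood at 4.11, 0.557, 0.0597 and 0.0878 CPM, below the parental library in all 3 DMSO libraries. FYN was higher in courses 3 and 5 but lowest in course 1. The part of the T and NK cell markers in the level of FYN was not tested. Their list summed to 69.3, 102.2, 65.5 and 51.8 CPM, nearly all of it NKG7 (64.9, 101.5, 65.1 and 51.7 CPM). The 5 B cell markers summed to 2.38, 3.34, 0.538 and 0.439 CPM, with MS4A1 at 0 counts. That sum had the order of FGR, as did those of the T and NK cell markers, the 4 erythroid markers, at 42.4, 60.7, 33.3 and 29.6 CPM with ALAS2 at 0 counts, HBB and HBA1 at 0 or 1, and nearly all of the sum from EPOR alone, and the 5 megakaryocyte markers, at 4.80, 8.10, 3.98 and 2.46 CPM with PF4 and PPBP at 0 counts. Their part in the level of FGR was not tested. The epithelial and stromal list summed to 43.3, 22.8, 12.5 and 10.5 CPM, with EPCAM at 0 to 2 counts. It was mostly the keratins KRT18, at 28.5, 11.7, 5.68 and 4.35 CPM and called lower in all 3 courses than in parental cells, and KRT8, at 11.6, 8.64, 6.61 and 5.99 CPM. That sum was lowest in course 5, as FGR was, but highest in the parental library.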

How the data were processed

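The deposited files hold raw read counts per Ensembl gene, made by the authors for 1 library each as whole numbers with 5 HTSeq summary rows. The submitters' processing notes list FastQC 0.11.5, TopHat2 2.0.11, HTSeq 0.6p1 and hg19. The gene set used by the authors is not given in the sources used here. All 58735 IDs matched GENCODE release 29, annotated on GRCh38, so the build of the counts is uncertain and GENCODE gave only symbols, exon lengths and gene order. Start regions come from RefSeq on GRCh38.p14.

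The summary rows did not enter library sizes. CPM used TMM scaling (edgeR 4.0.16, R 4.3.3) over 18612 genes kept by filterByExpr (minimum count 10, minimum total 15). Log2 ratios had exact Clopper-Pearson 95% intervals (scipy 1.17.1), and calls needed a mean of at least 5 CPM and 2-fold. Length was the union of a gene's exons. Calls were tested on simulated data. The simulated counts held counting error only, as the intervals do, so that test does not cover differences between cultures. The changes put into them were larger than 2-fold, so calls near that limit were not covered either. No p-value is given, because each condition has 1 library and the members were chosen on these libraries.

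The members and lists were chosen with earlier results of these data known. All members were named, with up to 4 called genes in each list by their largest ratio, the 8 nearest profiles to FGR, and marker and Src-family genes added for context. Alternatives were total counts, DESeq2 1.42.0 size factors, TMM without mitochondrial genes or over all genes, a 1.5-fold call, lower minimums, longest-transcript length and a prior count of 0.5 in place of 2. No exon of a member overlapped an exon of another annotated gene.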

Additional observations from a re-analysis of the deposited data

How the results depend on the processing

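Of 98 alternative values, 87 stayed within their counting interval or within 1.5 times the reported count, 11 moved and 0 reversed. Scaling by total counts moved every log2 ratio to the parental library by -0.114 in course 1, -0.076 in course 3 and -0.043 in course 5, and the ratios of FGR stayed inside their intervals under every scaling tried. With total counts only, 3 genes of the pathway lists in place of 5 were called in course 1 against parental. Calls at 1.5-fold gave 2 members in place of 1 in course 1, 2 in place of 0 in course 3, 4 in place of 2 in course 5 against course 1 and 2 in place of 1 in course 5 against course 3. For the pathway lists they gave 20, 16 and 21 genes in courses 1, 3 and 5 against parental in place of 5, 7 and 9, with 23 in place of 6 in course 3 against course 1, 30 in place of 12 in course 5 against course 1 and 7 in place of 2 in course 5 against course 3. All 9 members kept their rank by level with the length of the longest transcript, and all 8 nearest genes to FGR were the same with a prior count of 0.5. TMM over all genes was an alternative chosen after seeing the data. No paired analysis was possible because each condition has 1 library and no fit was made. FGR in course 5 rests on 142 counts, and with 1 library a condition the intervals do not cover differences between cultures.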

Other observations

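The expressed protein-coding genes that flank FGR and FYN in GENCODE release 29 were read as well. AHDC1, 7.6 kb from FGR, stood at 18.4, 31.8, 15.5 and 15.6 CPM across the parental and the course 1, 3 and 5 libraries. It was highest in course 1, as FGR was, and nearly level in courses 3 and 5, both below the parental library. WASF2, FAM76A and STX12, 90.7 to 137.9 kb away, stood at 168.2, 215.5, 164.0 and 170.6 CPM, at 6.31, 4.202, 5.58 and 5.64 CPM and at 40.2, 63.4, 51.1 and 50.6 CPM. WASF2, FAM76A and STX12 were not lowest in course 5, where FGR was lowest. Any link of these neighbours with the level of FGR was not tested. TUBE1, 197.3 kb from FYN, stood at 51.2, 27.95, 90.1 and 96.3 CPM and REV3L, 176.6 kb on the other side, at 54.9, 37.6, 67.7 and 85.1 CPM. Both had the same order of libraries as FYN, an order found in 15.2% of the genes averaging 5 CPM or more. HDAC2, 2059.6 kb from FYN, stood at 213.0, 201.7, 217.5 and 258.2 CPM, again in that order over a smaller range. TRAF3IP2, 54.1 kb from FYN, stood at 29.3, 37.4, 38.6 and 46.7 CPM, in another order.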
